A study of Homo sapiens with 27 samples.

Results

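The genes described here are CYR61, CTGF, THBS1 and AMOTL2, 4 of the 10470 genes in the table, followed through all 9 groups of the study. They were picked by symbol, and the values that put them together are from these data: the choice rested on higher levels after control transfection than in untransfected cells. Comparisons of the 4 genes with either control group are therefore given as a description, with differences and standard errors and without p-values. All 4 passed the filter on low values, a mean of at least 10 transcripts in each 1000000 (TPM) over all libraries, as did 6458 genes in all.

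RNA came from DLD1, a human colorectal carcinoma line, and was read as amplicons of a transcriptome panel. The study has 9 groups of 3 replicates. NT cells were not transfected. The siCTRL cells received a combination of non-targeting small interfering RNAs (siRNAs). The other 7 groups were depleted of VPS37A, VPS37B or VPS37C alone (siVPS37A, siVPS37B, siVPS37C), of a pair of them (siVPS37AB, siVPS37AC, siVPS37BC) or of all 3 (siVPS37ABC). The paralogs can each fill the VPS37 place in ESCRT-I, which sorts ubiquitinated cargo of endosomes towards the lysosome. Cells were collected 72 h after transfection. Each paralog was targeted by 1 siRNA sequence, so an effect of a sequence and an effect of the paralog cannot be told apart. Which control siRNAs made up siCTRL, and how much siRNA each group received in total, is not given in the sources used here.

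In the libraries of the depleted groups, VPS37A stood at 2.52 to 10.2%, VPS37B at 2.08 to 8.78% and VPS37C at 17.8 to 31.8% of its mean in siCTRL, over 12 libraries each. Of the markers of colorectal epithelium 8 of 11 were in the table, and their summed level was 7808 to 12596 TPM. Fibroblast markers were represented by 1 of 9 (ACTA2, 1.37 to 5.83 TPM), endothelial markers by 1 of 6 (EGFL7, 1.85 to 7.37 TPM) and leukocyte markers by 3 of 7 with a summed 8.11 to 13.5 TPM. No marker of these 3 lists reached a mean of 10 TPM. All pairs of libraries had rank correlations between 0.945 and 0.992.

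YAP and its relative TAZ are coactivators that enter the nucleus and work through the TEAD transcription factors. The kinases of the Hippo pathway, LATS foremost, phosphorylate YAP and keep it out of the nucleus, while cell spreading, a stiff substrate and sparse culture favour its entry. CYR61 and CTGF are the classic readouts of this activity in cultured epithelial cells. Both encode secreted matricellular proteins of the CCN family, which bind integrins and heparan sulfate and are now named CCN1 and CCN2. THBS1 encodes thrombospondin-1, a secreted glycoprotein that binds CD47 and CD36 and can activate latent TGF-beta. AMOTL2 encodes an angiomotin-like scaffold of cell junctions that binds YAP and holds it back, so that it is a target gene and an inhibitor of the same factor.

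The stretch before the start of transcription is shown for the genes with a match to the TEAD recognition letters, because TEAD sites are what makes a gene a direct YAP target. RefSeq on GRCh38.p14 gave a window for 3 of the 4 genes, and CYR61 was not matched. Each line gives the 250 bases before the annotated start, 5′ to 3′ on the strand of the gene, and capitals mark GGAATG or its reverse complement.
CTGF, chr6:131951373-131951622, minus strand: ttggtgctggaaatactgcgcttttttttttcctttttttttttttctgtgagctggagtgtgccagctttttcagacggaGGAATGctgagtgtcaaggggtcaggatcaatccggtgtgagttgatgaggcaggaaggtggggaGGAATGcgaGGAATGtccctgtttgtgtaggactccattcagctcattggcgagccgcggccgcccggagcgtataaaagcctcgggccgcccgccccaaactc
THBS1, chr15:39580829-39581078, plus strand: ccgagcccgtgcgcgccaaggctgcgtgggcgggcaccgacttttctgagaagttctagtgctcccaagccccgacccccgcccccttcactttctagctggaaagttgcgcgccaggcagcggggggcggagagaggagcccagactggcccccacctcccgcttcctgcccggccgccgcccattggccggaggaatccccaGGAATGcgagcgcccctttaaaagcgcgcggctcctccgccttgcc
AMOTL2, chr3:134374448-134374697, minus strand: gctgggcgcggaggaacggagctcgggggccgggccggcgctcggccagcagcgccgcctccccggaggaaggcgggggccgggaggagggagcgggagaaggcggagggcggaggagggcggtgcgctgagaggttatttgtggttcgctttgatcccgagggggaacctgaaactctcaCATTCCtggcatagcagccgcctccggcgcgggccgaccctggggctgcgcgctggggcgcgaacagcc

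CTGF held 3 matches, at 169, 104 and 95 bases before its start. THBS1 held 1 match, at 46 bases, and AMOTL2 held 1 match, at 69 bases, in 1 of its 2 annotated windows. Over all 35116 windows of this length in RefSeq, 11.9% held at least 1 match on either strand and 0.0826% held at least 3. The AP-1 letters TGANTCA were in 6.57% of all windows and in none of the windows of these genes. The CArG box, which serum response factor binds, was in 1.16% of all windows and likewise in none of them. These are matches of letters in short windows, and binding was not measured.

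The antisense strands of the custom control siRNAs are shown because the genes were chosen on control transfection. Capitals mark bases 2 to 8, the seed.
NC3: cUACGAUAgaccggucguatt
NC4: aCGUGACAcguucggagaatt

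CYR61 and CTGF were highest in siCTRL of all 9 groups and lowest in siVPS37ABC. CYR61 stood at 130, 71.5 and 62.0 TPM in the NT libraries of replicates 1, 2 and 3, and at 221, 165 and 152 TPM in siCTRL. Every siCTRL library was above every NT library, by 1.08 ± 0.28 in log2(TPM + 1) (± SE, n = 3 per group, from a limma model of all libraries). CTGF was at 24.3, 14.4 and 10.3 TPM in NT and at 59.0, 37.9 and 27.1 TPM in siCTRL. Again no siCTRL value reached down to the NT range, and the difference was 1.30 ± 0.30. The ratio of siCTRL to NT within a replicate number was 2.43, 2.63 and 2.64 for CTGF, and 1.70, 2.304 and 2.45 for CYR61.

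THBS1 and AMOTL2 showed less of this. THBS1 was at 70.2, 45.3 and 42.1 TPM in NT and at 82.6, 64.2 and 72.0 TPM in siCTRL, so that the ranges overlapped through the first NT library. Its difference was 0.50 ± 0.17. AMOTL2 was at 84.7, 54.9 and 69.6 TPM in NT and at 95.1, 70.5 and 80.0 TPM in siCTRL, with overlapping ranges and a difference of 0.24 ± 0.17. Within each replicate number siCTRL was above NT for both genes, with mean ratios of 1.44 ± 0.27 for THBS1 and 1.19 ± 0.09 for AMOTL2 (SD, n = 3). All 3 siCTRL libraries were above all NT libraries for 2 of the 4 genes, against 9.8% of all genes tested, and 3.17% of all genes passed the test between these groups in either direction. Nothing is read from this count, since the choice of the genes used these groups.

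**Figure D1:**
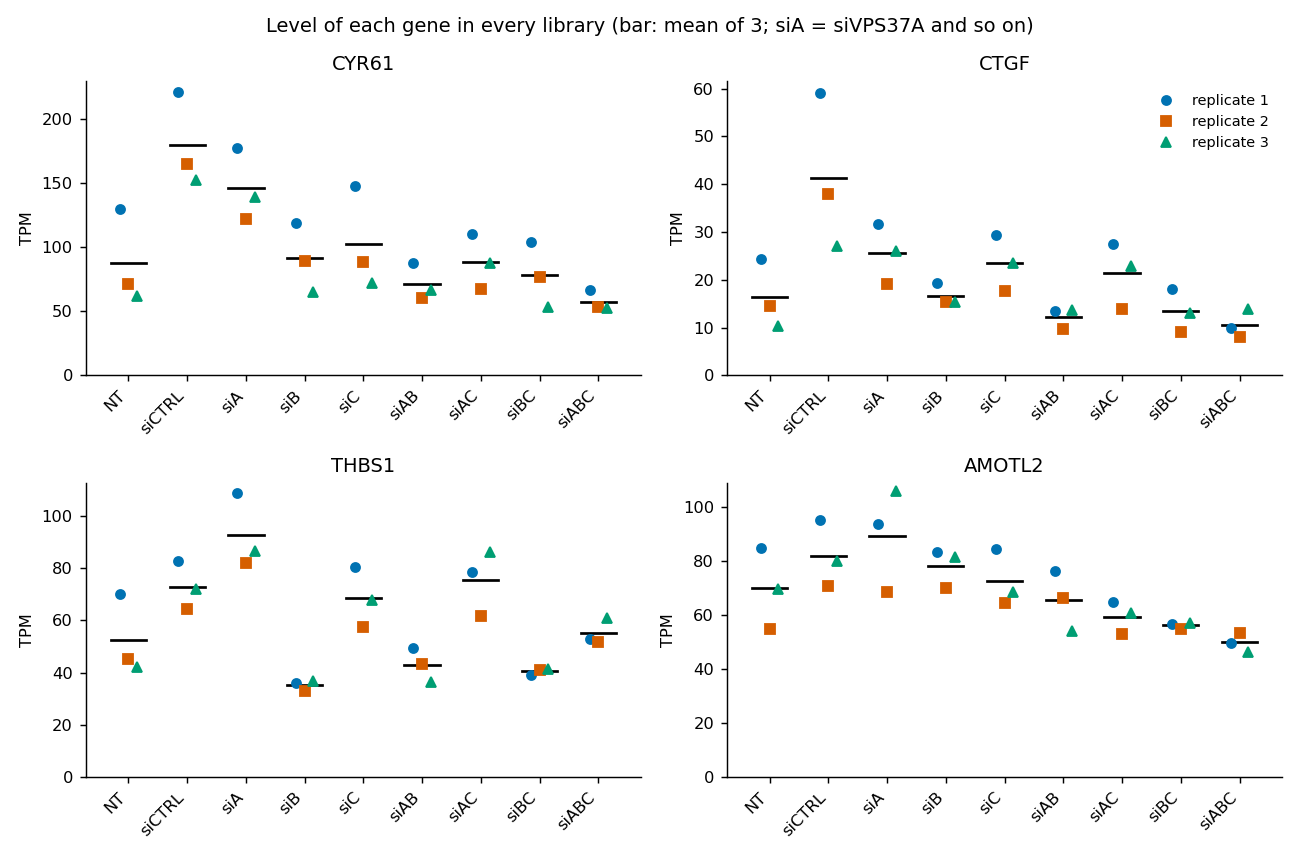
TPM of CYR61, CTGF, THBS1 and AMOTL2 (vertical axes, from 0) in the 27 libraries, with symbols for replicates 1 to 3 and a bar for each group mean. CYR61 ranges from a mean of 179 TPM in siCTRL to 57.5 TPM in siVPS37ABC, while THBS1 has its lowest mean, 35.3 TPM, in siVPS37B.

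With all 3 paralogs depleted, CYR61 was at 66.7, 53.0 and 52.9 TPM, and all 3 values were below the lowest siCTRL library. The difference from siCTRL was -1.61 ± 0.28 and from NT -0.53 ± 0.28, so the size depends on which control is taken. CTGF was at 9.88, 7.94 and 13.9 TPM in siVPS37ABC, -1.83 ± 0.30 from siCTRL and -0.53 ± 0.30 from NT. Its siVPS37ABC values overlapped the NT values and did not overlap the siCTRL values. AMOTL2 was at 49.7, 53.4 and 46.3 TPM, below every library of both controls, with differences of -0.70 ± 0.17 from siCTRL and -0.46 ± 0.17 from NT. THBS1 was at 52.7, 51.6 and 60.8 TPM. It was below all siCTRL libraries by -0.40 ± 0.17 and lay within the NT range, at 0.10 ± 0.17 from NT. In bulk RNA, fewer cells with a transcript and less transcript in each cell cannot be told apart.

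The order of CYR61 by group mean was siCTRL (179 TPM), siVPS37A (146), siVPS37C (103), siVPS37B (91.2), siVPS37AC (88.2), NT (87.8), siVPS37BC (78.1), siVPS37AB (71.6) and siVPS37ABC (57.5). Ranges of neighbours overlapped at every place in this order. CTGF followed nearly the same order, from siCTRL (41.4 TPM) over siVPS37A (25.5), siVPS37C (23.5), siVPS37AC (21.5), siVPS37B (16.7), NT (16.3), siVPS37BC (13.4) and siVPS37AB (12.3) to siVPS37ABC (10.6), again with overlap between all neighbours. In both genes NT lay in the middle of the order, below the groups depleted of VPS37A or VPS37C alone.

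THBS1 was ordered otherwise. Its means were 92.5 TPM in siVPS37A, 75.4 in siVPS37AC, 72.9 in siCTRL, 68.5 in siVPS37C, 55.05 in siVPS37ABC, 52.5 in NT, 43.1 in siVPS37AB, 40.4 in siVPS37BC and 35.3 in siVPS37B. The 4 groups with VPS37B depletion thus took 4 of the 5 lowest places. The siVPS37B libraries (35.96, 33.1 and 36.9 TPM) were all below the siVPS37BC libraries (38.9, 40.8 and 41.5 TPM), and all other neighbours overlapped. AMOTL2 ran from 89.3 TPM in siVPS37A over siCTRL (81.9), siVPS37B (78.2), siVPS37C (72.3), NT (69.7), siVPS37AB (65.5), siVPS37AC (59.3) and siVPS37BC (56.0) to 49.8 TPM in siVPS37ABC. The 3 pairs and the triple depletion filled the 4 lowest places, and only siVPS37BC and siVPS37ABC were neighbours without overlap.

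Against siCTRL, depletion of VPS37A alone left all 4 genes with overlapping ranges, at -0.29 ± 0.28 for CYR61, -0.63 ± 0.30 for CTGF, 0.34 ± 0.17 for THBS1 and 0.11 ± 0.17 for AMOTL2. Depletion of VPS37B alone put CYR61 (-0.99 ± 0.28), CTGF (-1.20 ± 0.30) and THBS1 (-1.02 ± 0.17) below the whole siCTRL range, while AMOTL2 overlapped it (-0.06 ± 0.17). Depletion of VPS37C alone put CYR61 (-0.84 ± 0.28) below that range and not CTGF (-0.75 ± 0.30), THBS1 (-0.09 ± 0.17) or AMOTL2 (-0.18 ± 0.17). Among the pairs, siVPS37BC was the group in which all 4 genes lay below siCTRL. Its differences were -1.22 for CYR61, -1.54 for CTGF, -0.83 for THBS1 and -0.53 for AMOTL2. The count of the 4 genes with every library below siCTRL was 0 in siVPS37A, where 4.96% of all genes tested were so placed, and 3 in siVPS37B (9.59%). It was 1 in siVPS37C (6.09%), 3 in siVPS37AB (11.2%), 2 in siVPS37AC (7.34%), 4 in siVPS37BC (8.32%) and 4 in siVPS37ABC (14.4%). These counts rest on the siCTRL libraries that chose the genes and share them, so they are not read further.

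With NT in place of siCTRL the picture of the single depletions changed. CYR61 was 0.79 ± 0.28 above NT in siVPS37A, 0.09 ± 0.28 in siVPS37B and 0.23 ± 0.28 in siVPS37C. CTGF was 0.67 ± 0.30, 0.10 ± 0.30 and 0.55 ± 0.30 above NT in the same groups. THBS1 was 0.83 ± 0.17 above NT in siVPS37A, with no overlap, and -0.52 ± 0.17 from it in siVPS37B, with no overlap on the other side. AMOTL2 was 0.35 ± 0.17 above NT in siVPS37A and differed by 0.18 and 0.06, both about the size of the SE or less, in siVPS37B and siVPS37C.

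**Figure D2:**
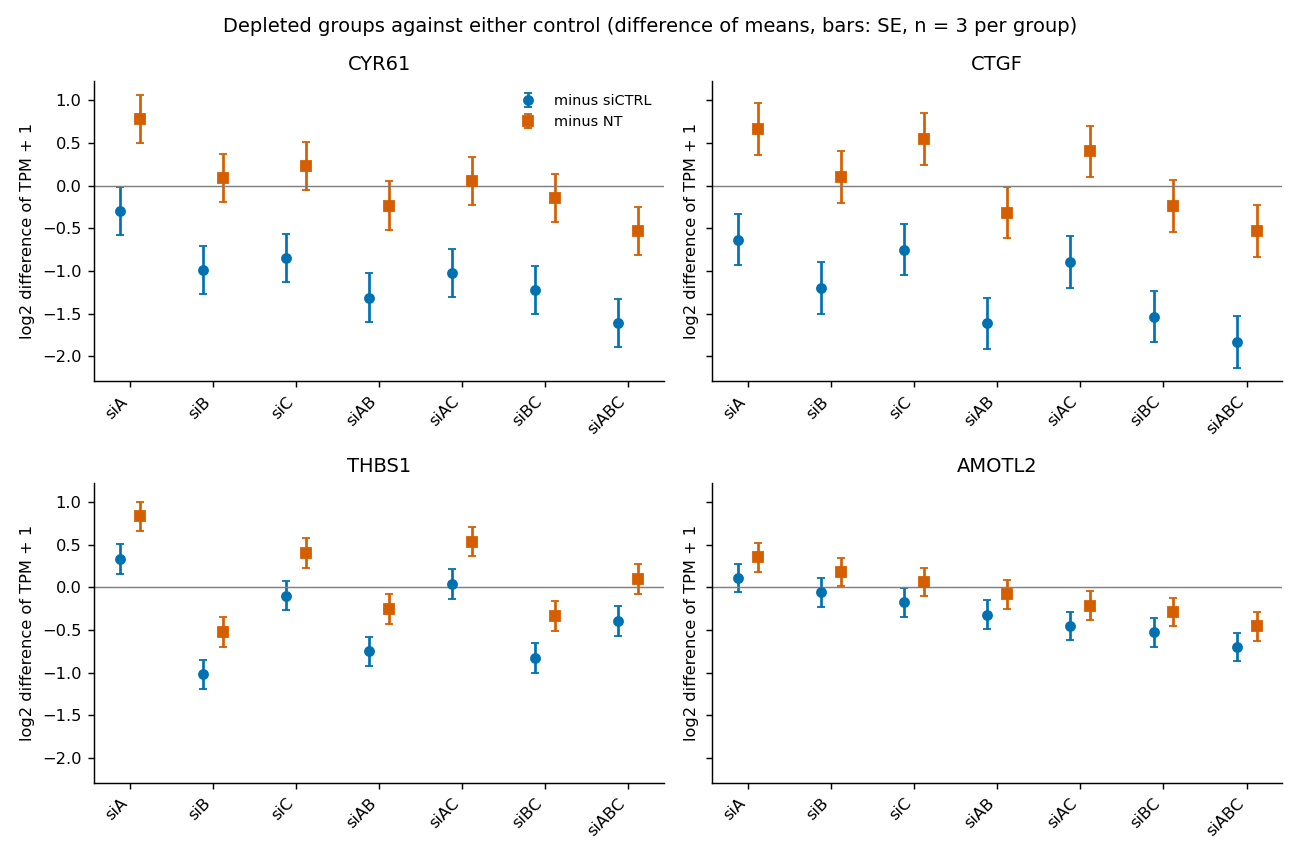
Difference in log2(TPM + 1) of each depleted group from siCTRL (circles) and from NT (squares), with SE as bars and n = 3 per group. Against siCTRL, CYR61 and CTGF lie below 0 in all 7 groups, and against NT their values run from 0.79 and 0.67 in siVPS37A to -0.53 in siVPS37ABC.

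The 7 depleted groups allow tests that use neither control. Loss of a paralog among depleted cells was measured as the mean of 3 matched steps in which only that paralog is added to the depletion. For VPS37B these are siVPS37AB minus siVPS37A, siVPS37BC minus siVPS37C and siVPS37ABC minus siVPS37AC. All cells in such a step were transfected with siRNAs, and the steps of the 3 paralogs use the same 21 libraries. Since the total siRNA of each group is not given, a step may also differ in siRNA amount or in control siRNA. An effect of such a difference cannot be told apart from paralog loss here. The genes were also chosen with earlier results of these data known. Unless another is named, values below are from the limma model without a term for replicate number. Benjamini-Hochberg adjustment was over all 6458 genes, and values count as passing at an adjusted p under 0.05. The labels call the replicates biological without naming separate cultures, so that p-values measure the spread between these samples.

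All 4 genes fell with loss of VPS37B, a share to set beside 4.72% of all genes tested that fell and 6.15% that rose. THBS1 fell by 0.75 ± 0.10 (adjusted p = 2.77e-05), CTGF by 0.90 ± 0.17 (adjusted p = 0.00130), CYR61 by 0.66 ± 0.16 (adjusted p = 0.00928) and AMOTL2 by 0.34 ± 0.10 (adjusted p = 0.0227). Counting the 9 steps within a replicate number, the sign was negative in 9 of 9 for THBS1, CTGF and CYR61 and in 8 of 9 for AMOTL2. The AMOTL2 call was lost without siVPS37AC replicate 1 (-0.32, adjusted p = 0.0511), without siVPS37C replicate 1 (-0.31, adjusted p = 0.0507) or without siVPS37AB replicate 3 (-0.30, adjusted p = 0.0553).

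THBS1 showed the VPS37B step most plainly. It went from 109, 82.1 and 86.7 TPM in siVPS37A to 49.3, 43.4 and 36.6 TPM in siVPS37AB, a difference of -1.09 ± 0.17 (adjusted p = 0.00149). From siVPS37C (80.4, 57.3 and 67.9 TPM) to siVPS37BC it differed by -0.73 ± 0.17, and from siVPS37AC (78.6, 61.6 and 86.0 TPM) to siVPS37ABC by -0.44 ± 0.17. In each of these steps no library with VPS37B depletion reached the range without it. CTGF went from 27.6, 14.0 and 22.8 TPM in siVPS37AC to 9.88, 7.94 and 13.9 TPM in siVPS37ABC. The difference was -0.94 ± 0.30 and did not pass (adjusted p = 0.0767). These ranges were barely apart, at 13.97 TPM for the lowest siVPS37AC library and 13.93 TPM for the highest siVPS37ABC library. The other VPS37B steps of CTGF were -0.98 ± 0.30 from siVPS37A and -0.79 ± 0.30 from siVPS37C. For CYR61 the steps were -1.02, -0.38 and -0.59 (SE 0.28) and for AMOTL2 -0.43, -0.35 and -0.25 (SE 0.17), from siVPS37A, siVPS37C and siVPS37AC.

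With loss of VPS37C, AMOTL2 was the member that passed, and the difference between the genes was not tested. It fell by 0.47 ± 0.10 (adjusted p = 0.00270), with a negative sign in 9 of 9 steps and no overlap in any of the 3 group steps. It went from 93.4, 68.6 and 106 TPM in siVPS37A to 64.6, 52.8 and 60.6 TPM in siVPS37AC, and from 83.3, 70.0 and 81.3 TPM in siVPS37B to 56.6, 54.7 and 56.8 TPM in siVPS37BC. CYR61 was lower by a like amount, -0.42 ± 0.16, with a negative sign in 9 of 9 steps. It did not pass (adjusted p = 0.114), and with the replicate number as a block it did (adjusted p = 0.00114). CTGF was at -0.27 ± 0.17 (adjusted p = 0.377) and THBS1 at 0.08 ± 0.10 (adjusted p = 0.680). Of all genes, 4.37% fell and 3.9% rose with this loss.

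Loss of VPS37A moved THBS1 the other way. THBS1 rose by 0.28 ± 0.10 (adjusted p = 0.0375), positive in 7 of 9 steps, where 19.1% of all genes tested rose and 8.33% fell. That call was lost in 10 of the 18 fits that left out 1 library, with differences of 0.24 to 0.33 over all 18 and adjusted p from 0.0210 to 0.0903. It was also lost with quantile normalization (0.21, adjusted p = 0.140). The other genes were lower without passing, CYR61 at -0.30 ± 0.16 (adjusted p = 0.181), CTGF at -0.29 ± 0.17 (adjusted p = 0.232) and AMOTL2 at -0.24 ± 0.10 (adjusted p = 0.0714). With the replicate block, CYR61 (adjusted p = 0.00734) and AMOTL2 (adjusted p = 0.0172) passed. The sign was negative in 9 of 9 steps for AMOTL2 and in 7 of 9 for CYR61. The mean of the CYR61 steps was -0.49 in replicates 1 and 2 and 0.09 in replicate 3.

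**Figure D3:**
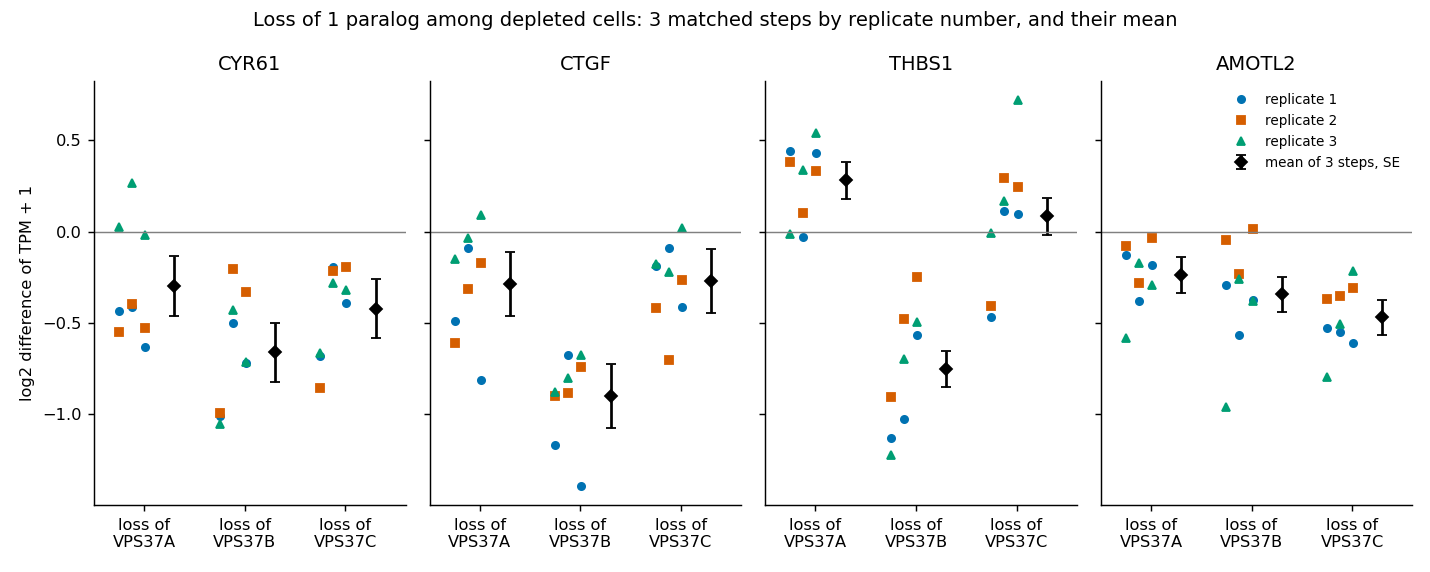
Difference in log2(TPM + 1) for each of the 3 matched steps of each paralog loss, by replicate number, with the mean of the 3 steps and its SE as a black diamond. Loss of VPS37B lies below 0 in 9 of 9 steps for CYR61, CTGF and THBS1, and loss of VPS37A has THBS1 at 0.28 and the other genes below 0.

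Taken singly, 1 of the 36 steps (9 for each gene) passed, THBS1 from siVPS37A to siVPS37AB. Of all genes tested, 2.09% passed in that step. The share was 0.031% from siVPS37C to siVPS37BC, 4.35% from siVPS37AC to siVPS37ABC, 0.496% from siVPS37A to siVPS37AC, 3.11% from siVPS37B to siVPS37BC and 1.04% from siVPS37AB to siVPS37ABC. For the VPS37A steps it was 12.4% from siVPS37B, 0.186% from siVPS37C and 12% from siVPS37BC. With the replicate block 12 of the 36 steps passed, where 9.53% of all genes passed over the 9 steps together. The adjusted p of CYR61 from siVPS37A to siVPS37AB went from 0.0543 to 0.000112 with the block, and that of CTGF from siVPS37AC to siVPS37ABC from 0.0767 to 0.00377.

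Whether a step was larger in one background than in another was tested after the values had been seen. None of the 24 distinct differences between steps passed in limma (lowest adjusted p 0.837), and 1 had an unadjusted p under 0.05. That one was THBS1, whose VPS37B step was 0.65 ± 0.24 more negative from siVPS37A than from siVPS37AC (adjusted p = 0.9997). The median SE of such a difference was 0.32. Differences well above that size could fail to pass after adjustment, so the lack of calls does not show that the steps were alike.

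Replicates carry a shared number that the labels call a batch, and CYR61 followed it closely. Its replicate 1 library was the highest of the 3 in 9 of 9 groups, with a mean deviation of 0.40 in log2 from the group mean. The same held in 7 of 9 groups for CTGF, 6 for AMOTL2 and 5 for THBS1. After removal of the group means, the deviations of CYR61 and CTGF had a Pearson r of 0.71 and those of THBS1 and AMOTL2 0.70 over 27 libraries. Over the 9 group means these pairs had r of 0.95 and 0.34. For THBS1 and AMOTL2 the r of the deviations was thus the higher of the 2 values. The points share batch numbers, so these values are a description.

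**Figure D4:**
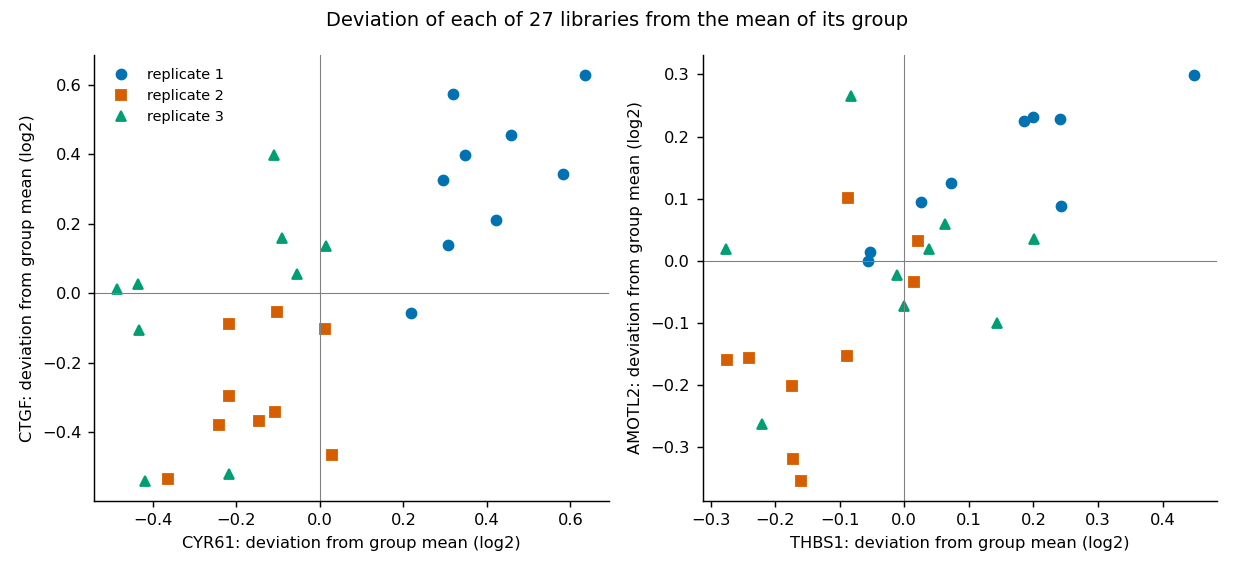
Deviation of each library from its group mean in log2(TPM + 1), CTGF against CYR61 on the left and AMOTL2 against THBS1 on the right, with 27 libraries marked by replicate number. Replicate 1 of CYR61 lies to the right of 0 in every group, and r is 0.71 on the left and 0.70 on the right.

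The library descriptions end in a number that takes 7 values and does not fall evenly over the groups. NT and siCTRL share it in every replicate, with 88, 88 and 603 in replicates 1, 2 and 3. The siVPS37ABC libraries have 80, 84 and 88. Within a replicate number, siVPS37B and siVPS37C have the number of the controls in replicate 3, and no other depleted library has it. Differences of depleted groups from siCTRL or NT, those of the gene lists included, therefore also carry any effect of this number. In replicates 1 and 2 the single depletions have one number and the pairs and the triple another. The step from siVPS37AC to siVPS37ABC lies within 1 number in all 3 replicates. There loss of VPS37B gave -0.59 ± 0.28 for CYR61, -0.94 ± 0.30 for CTGF, -0.44 ± 0.17 for THBS1 and -0.25 ± 0.17 for AMOTL2. None of the 4 passed in this step in limma (adjusted p of 0.277, 0.0767, 0.161 and 0.482). The step from siVPS37C to siVPS37BC crosses numbers in all 3 replicates, and that from siVPS37A to siVPS37AB in replicates 1 and 2. With this number as a term in the model, loss of VPS37B was -0.75 ± 0.15 for CYR61, -1.002 ± 0.16 for CTGF, -0.74 ± 0.13 for THBS1 and -0.50 ± 0.13 for AMOTL2, and all 4 passed. The THBS1 rise with loss of VPS37A did not pass with that term (0.23 ± 0.13, adjusted p = 0.220), while CYR61 (-0.47), CTGF (-0.51) and AMOTL2 (-0.40) did (adjusted p of 0.0330, 0.0294 and 0.0409).

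Among other YAP and TAZ targets, CRIM1 passed in the direction of these genes and several passed in the opposite one. Of a list of 20, 16 were in the table and 8 passed the filter. In siCTRL against NT, where 3.17% of all genes passed in either direction, 1 of the 8 rose and none fell. It was CRIM1, a transmembrane regulator of growth factors, at 149, 108 and 104 TPM in NT and 185, 174 and 167 TPM in siCTRL (0.55 ± 0.14, adjusted p = 0.0221, n = 3 per group in the limma model). All siCTRL libraries of CRIM1 were above all NT libraries. The call was lost in 5 of 6 fits without 1 library (adjusted p up to 0.135), each except the one without NT replicate 1, and with only the groups compared in the fit (adjusted p = 0.158).

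CRIM1 also went with the 4 genes on depletion. It was at 94.9, 92.6 and 95.6 TPM in siVPS37ABC, below every library of siCTRL and of NT. CRIM1 passed there against siCTRL (-0.88 ± 0.14, adjusted p = 3.57e-05) and did not pass against NT. It fell with loss of VPS37B (-0.36 ± 0.08, adjusted p = 0.00369) and of VPS37C (-0.41 ± 0.08, adjusted p = 0.00138), and did not pass with loss of VPS37A (-0.12 ± 0.08, adjusted p = 0.290). Like AMOTL2, it thus passed for the same 2 paralogs.

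In siVPS37ABC against siCTRL 4 further targets rose, where 13.6% of all genes rose and 8.32% fell. F3, the tissue factor that starts coagulation, went from 58.5, 33.2 and 42.2 TPM to 105, 86.3 and 147 TPM (1.32 ± 0.28, adjusted p = 0.00111). GADD45A, a growth arrest gene, rose by 0.90 ± 0.21, NT5E, the ecto-enzyme CD73, by 0.68 ± 0.14 and TGFB2, a TGF-beta ligand, by 0.48 ± 0.17. The TGFB2 call was lost in 4 of 6 fits without 1 library, those without siCTRL replicate 1 or 3 or siVPS37ABC replicate 2 or 3 (adjusted p up to 0.143). The same 4 genes rose with loss of VPS37A, F3 by 0.88 ± 0.16, GADD45A by 0.70 ± 0.12, TGFB2 by 0.62 ± 0.10 and NT5E by 0.28 ± 0.08. Over all genes tested, 19.1% rose and 8.33% fell with that loss. With loss of VPS37B, GADD45A rose (0.39 ± 0.12) and CRIM1 fell, and with loss of VPS37C, NT5E rose (0.36 ± 0.08) and CRIM1 fell. Of all genes, 6.15% rose and 4.72% fell with loss of VPS37B, and 3.9% rose and 4.37% fell with loss of VPS37C. The GADD45A rise with loss of VPS37B was lost in 9 of 18 fits without 1 library and with the library number as a term (adjusted p = 0.0505). The median of the 8 genes was 0.29 in siVPS37ABC against siCTRL, beside 0.03 over all genes tested, and -0.07 beside 0.01 with loss of VPS37B. In siVPS37ABC against NT, F3, GADD45A and NT5E passed as higher and AJUBA as lower, while TGFB2 and CRIM1 did not pass.

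**Figure D5:**
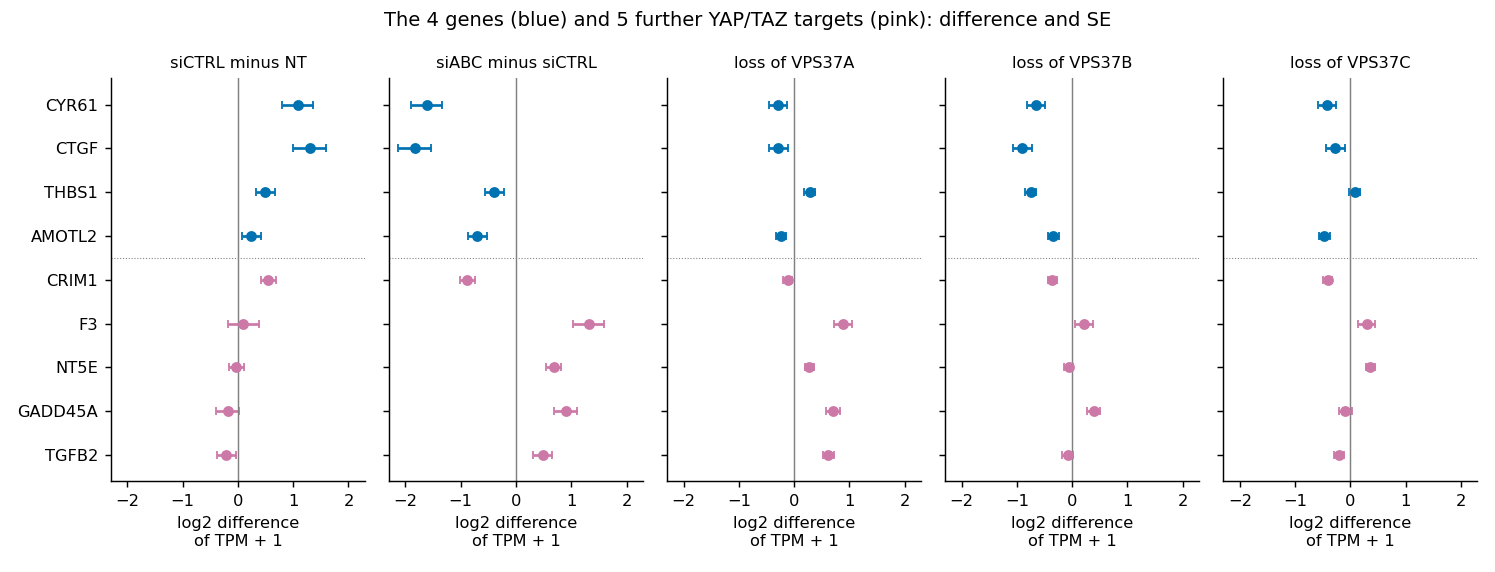
Difference in log2(TPM + 1) with SE for the 4 genes (blue) and for CRIM1, F3, NT5E, GADD45A and TGFB2 (pink) in 5 comparisons, 1 panel each. CRIM1 lies on the side of the 4 genes in siVPS37ABC minus siCTRL at -0.88, and F3, GADD45A, NT5E and TGFB2 lie on the other side, at 0.48 to 1.32.

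Genes of the Hippo pathway itself were also listed. Of 20 listed genes 19 were in the table and 13 were tested. YAP1 was at 122, 112 and 108 TPM in NT, 115, 126 and 145 TPM in siCTRL and 104, 135 and 134 TPM in siVPS37ABC, with overlapping ranges. Its differences were 0.17 ± 0.14 between siCTRL and NT and -0.05 ± 0.14 between siVPS37ABC and siCTRL (adjusted p of 0.561 and 0.829). In siCTRL against NT, 2 of the 13 rose and none fell, the MST1 kinase gene STK4 (0.57 ± 0.14, adjusted p = 0.0186) and TEAD4 (0.47 ± 0.13, adjusted p = 0.0483). Over all genes tested, 3.17% passed in this comparison in either direction. STK4 was at 15.6 to 15.9 TPM in NT and 21.1 to 27.1 TPM in siCTRL. Its call was lost in 4 of 6 fits without 1 library (siCTRL replicates 2 and 3, NT replicates 1 and 3) and that of TEAD4 in 6 of 6, with adjusted p up to 0.124 and 0.249.

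In siVPS37ABC against siCTRL the TAZ gene WWTR1 (0.65 ± 0.20, adjusted p = 0.0191) and the kinase gene TAOK1 (0.59 ± 0.15, adjusted p = 0.00649) rose, and no Hippo gene fell. WWTR1 lost its call without siVPS37ABC replicate 2 or 3 or siCTRL replicate 2 (adjusted p up to 0.0832), and was at 12.8, 8.31 and 12.9 TPM in NT, in the range of the 9.66, 12.0 and 12.7 TPM of siVPS37ABC. With loss of VPS37B, TAOK1 rose (0.39 ± 0.09) and WWC1, which encodes the LATS activator KIBRA, fell (-0.32 ± 0.10), the latter call being lost in 10 of 18 fits without 1 library. TAOK1 (0.44 ± 0.09) and LATS1 (0.19 ± 0.07) rose with loss of VPS37A. LATS1 lost its call in 15 of 18 such fits and with quantile normalization. Over all genes tested, 13.6% rose in siVPS37ABC against siCTRL, 19.1% with loss of VPS37A and 6.15% with loss of VPS37B. With loss of VPS37B, 4.72% of all genes fell. Counts among 13 genes are too small to set apart from these shares, so nothing is read from them. No Hippo gene passed with loss of VPS37C in limma, where 2 had an unadjusted p under 0.05.

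Genes around the secreted members were counted from lists. Of 11 tested receptors of CYR61, CTGF and THBS1, none passed in siCTRL against NT in limma (none with an unadjusted p under 0.05), and 5 rose in siVPS37ABC against siCTRL, with none falling, where 13.6% of all genes rose. The call of SDC1 (0.42 ± 0.15), 1 of the 5, was lost in 6 of 6 fits without 1 library (adjusted p of 0.0649 to 0.135) and with quantile normalization (adjusted p = 0.0773). The integrin genes ITGA5 (1.37 ± 0.15), ITGA2 (1.08 ± 0.17) and ITGA6 (0.64 ± 0.16) and the heparan sulfate proteoglycan gene SDC4 (0.91 ± 0.16) changed most. The other 6 receptor genes tested did not pass. With loss of VPS37B, 2 of the 11 rose (ITGA5 by 0.39 and SDC4 by 0.42), where 6.15% of all genes rose. Loss of VPS37A gave larger values for both. Over 18 fits without 1 library, ITGA5 was at 0.60 to 0.67 and SDC4 at 0.64 to 0.73 with that loss. With loss of VPS37B they were at 0.35 to 0.42 and 0.38 to 0.48. ITGA2 (0.55 to 0.68) and ITGA6 (0.37 to 0.49) also passed with loss of VPS37A in all these fits. Of the 8 other CCN and thrombospondin family members, NOV was in the table, below the filter.

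Among 16 tested genes of the serum response factor and actin group, which share upstream cues with YAP, 6 rose and 1 fell in siVPS37ABC against siCTRL. Over all genes tested, 13.6% rose and 8.32% fell there. One of the 6, ACTG1 (0.59 ± 0.20), lost its call in 5 of 6 fits without 1 library (adjusted p up to 0.145) and with the library number as a term (adjusted p = 0.223). FHL2, a LIM domain cofactor, rose by 1.11 ± 0.21, the focal adhesion gene ZYX by 0.78 ± 0.17 and the filamin gene FLNA by 0.78 ± 0.21. FLNA did not pass with the library number as a term (adjusted p = 0.0747). The gene that fell was TAGLN2 (-0.61 ± 0.14), named after its value was seen. With loss of VPS37B, TPM4 (0.46 ± 0.07) and FLNA (0.39 ± 0.12) rose and none fell, FLNA losing its call in 12 of 18 fits without 1 library. Over all genes tested, 6.15% rose and 4.72% fell with this loss. With loss of VPS37A, FHL2 (0.74 to 0.90 over 18 such fits), ZYX (0.39 to 0.46) and TPM4 (0.32 to 0.38) rose and kept their calls. FLNA rose there too (0.28 to 0.41) and lost its call in 10 of 18. In siCTRL against NT none of the 16 passed in limma, and 1 had an unadjusted p under 0.05.

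Of 9 tested genes of TGF-beta responses, TGFBI rose in siVPS37ABC against siCTRL (0.50 ± 0.16) and BAMBI, a decoy receptor, fell with loss of VPS37B (-0.28 ± 0.08), while SMAD3, SMAD4, SKIL and TGFBI passed as higher with loss of VPS37A, where 19.1% of all genes did. SMAD3 lost that call in 9 and SMAD4 in 11 of 18 fits without 1 library, and 2 of the 9 genes passed with quantile normalization. The TGFBI call in siVPS37ABC was lost in 3 of 6 and the BAMBI call in 8 of 18 fits without 1 library. None of the 9 passed in siCTRL against NT in limma, and 2 had an unadjusted p under 0.05.

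Immediate early genes, which respond to serum and stress within minutes as CYR61 and CTGF can, split by gene. None of 11 passed in siCTRL against NT in limma (none with an unadjusted p under 0.05). In siVPS37ABC against siCTRL 6 rose, among them ATF3 (1.97 ± 0.27), KLF6 (1.76 ± 0.15) and JUND (1.25 ± 0.16), and 1 fell, EGR1 (-2.38 ± 0.47). Over all genes tested, 13.6% rose and 8.32% fell in this comparison. DUSP1, 1 of the 6, lost its call without siCTRL replicate 3 (adjusted p = 0.0827). With loss of VPS37B 5 rose and EGR1 fell (-0.89 ± 0.27), where 6.15% of all genes rose and 4.72% fell. That EGR1 call was lost in 11 of 18 fits without 1 library. Over such fits loss of VPS37A gave ATF3 at 1.45 to 1.63, KLF6 at 1.20 to 1.29 and EGR1 at -1.18 to -0.91, with no call lost. With loss of VPS37B these were 0.64 to 0.81, 0.60 to 0.69 and -1.02 to -0.76. The difference between the paralogs was not tested.

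Of the markers of colorectal epithelium 7 were tested, and some of them passed in the same comparisons. KRT20, a keratin of differentiated intestinal cells, was at 57.7, 55.7 and 62.4 TPM in NT, 33.2, 26.1 and 24.4 TPM in siCTRL and 101, 92.3 and 93.7 TPM in siVPS37ABC. It fell in siCTRL against NT (-1.05 ± 0.19, adjusted p = 0.00168) and rose in siVPS37ABC against siCTRL (1.75 ± 0.19, adjusted p = 2.17e-07), with no overlap in either, on the opposite side of CYR61 and CTGF. CDX2, an intestinal transcription factor, fell in siVPS37ABC against siCTRL (-1.30 ± 0.18, adjusted p = 1.06e-05), where KRT19 (0.63 ± 0.13) and EPCAM (0.34 ± 0.11) rose. EPCAM lost its call in 5 of 6 fits without 1 library. KRT8 (0.07), KRT18 (0.16) and CDH1 (0.30) did not pass in siVPS37ABC against siCTRL (adjusted p of 0.868, 0.347 and 0.278). Of all genes tested, 13.6% rose and 8.32% fell there. KRT20 alone of the 7 passed in siCTRL against NT, where 3.17% of all genes passed in either direction. Both comparisons share the siCTRL libraries. KRT20 rose with loss of VPS37B (0.60 ± 0.11, adjusted p = 0.000657) and CDX2 fell (-0.53 ± 0.11, adjusted p = 0.00182), and KRT20 did not pass with the library number as a term (adjusted p = 0.0584). Loss of VPS37A gave larger values in the same limma model, KRT20 at 0.84 ± 0.11 (adjusted p = 2.39e-06) and CDX2 at -0.76 ± 0.11 (adjusted p = 7.25e-06). The difference between the paralogs was not tested. The part of these markers in the values of the 4 genes was not tested.

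Over all these lists together, the epithelial markers left out, the calls in siCTRL against NT rose from 3 to 6 with the replicate block, where 8.86% of all genes passed.

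The genes whose log2(TPM + 1) ran most like each member over the 27 libraries were named by Pearson r, as a description. For CYR61 they were CTGF (0.88), DDAH1 (0.84) and CRIM1 (0.80), and for CTGF they were DDAH1 (0.92), CYR61 (0.88) and ZNF174 (0.82). THBS1 was nearest to GALNT1 (0.82), STYX (0.81) and STX3 (0.80), and AMOTL2 to CRIM1 (0.82), METRNL (0.75) and CYR61 (0.75). VPS37B itself was the seventh gene for THBS1 (0.77), a value singled out after it was seen. The libraries share replicate numbers, groups and siRNAs, which enter these values.

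DDAH1 encodes a dimethylarginine hydrolase and is the neighbour of CYR61 on chromosome 1 in the RefSeq gene order. It was at 166, 109 and 92.7 TPM in NT, 238, 174 and 154 TPM in siCTRL and 105, 88.9 and 119 TPM in siVPS37ABC. The siCTRL and NT ranges of DDAH1 overlapped, and siCTRL and siVPS37ABC did not. Across the 9 steps of VPS37B loss within replicate numbers its sign was negative in 9 of 9. DDAH1 was named for its likeness to CYR61 and CTGF over these same libraries, so this sign is no separate support.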

How the data were processed

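RNA of 27 DLD1 libraries (9 groups of 3) was measured with the Ion AmpliSeq panel for human transcripts, per the labels. HTSeq 0.6.0, DESeq2 1.18.1 and hg19 stand in the submitters' processing notes, with no word on which did what. The deposited table is named as normalized counts, but each of its columns sums to 1000000 and the values are not whole, so the deposited values were used as TPM. Depth per library is unknown, no counting error can be given, and edgeR and DESeq2 were not run. Blank lines (2157) were left out.

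Differences are of log2(TPM + 1), which understates changes of low genes. A limma 3.58.1 model in R 4.3.3 with 9 group means and an intensity trend was fitted to the 6458 genes whose mean reached 10 TPM, tested on simulated data, with Benjamini-Hochberg adjustment within each comparison and a threshold of 0.05. It leaves 18 residual degrees of freedom. Replicate numbers are called batches in the labels. The main model does not pair samples by them, and the replicate block is an alternative. After removal of group means, libraries with the same number had a mean r of 0.355, the lowest being -0.386. The mean of -0.175 for other pairs is largely set by that removal, so it is no separate support for pairing. Named genes are the 4 members, the 3 nearest to each by r, all passing genes of the YAP and Hippo lists and up to 4 of each other list by size, and the values of 1 listed gene are not reported here. The members and the lists were chosen with earlier results of these data known. Alternatives are given at the end of the text. Sequences are from RefSeq on GRCh38.p14, matched by symbol. Descriptions and figures were made in Python 3.11.15 with pandas 2.3.3 and matplotlib 3.10.9.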

Additional observations from a re-analysis of the deposited data

How the results depend on the processing

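With loss of VPS37B, the calls of CYR61, CTGF and THBS1 passed under every alternative run, as did that of AMOTL2 with loss of VPS37C. CTGF has no value at a minimum mean of 50 TPM, which it does not reach, so the single steps were not counted there either. AMOTL2 with loss of VPS37B ranged from -0.40 to -0.30 over the 18 fits without 1 library and lost its call in 3. THBS1 with loss of VPS37A lost its call with the library number as a term (0.23) and with quantile normalization (0.21), and ranged from 0.24 to 0.33 without 1 library. Members that passed only under an alternative did so with loss of VPS37A or VPS37C. With the replicate block these were CYR61 (-0.30) and AMOTL2 (-0.24) for VPS37A and CYR61 (-0.42) for VPS37C, and the block changed no other call of the members in these 3 comparisons. With the library number as a term they were CYR61 (-0.47), CTGF (-0.51) and AMOTL2 (-0.40) for VPS37A and CYR61 (-0.56) for VPS37C. AMOTL2 with loss of VPS37A also passed with quantile normalization (-0.30), with only the groups compared in the fit (-0.24) and without siVPS37AB replicate 1, in a range of -0.28 to -0.19 without 1 library. The cause of these changes was not tested.

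Over all genes, 1771 passed with loss of VPS37A, 702 with loss of VPS37B and 534 with loss of VPS37C. At a minimum mean of 50 TPM, where fewer genes are tested, these were 701, 289 and 178, and with the replicate block the last 2 were 1380 and 1139. Quantile normalization changed the split for loss of VPS37A from 1233 higher and 538 lower to 877 and 867, and for siVPS37ABC against siCTRL from 880 and 537 to 765 and 753. Of listed genes, cell type markers left out, 3 passed in siCTRL against NT, 6 with the replicate block, 8 with the library number, 1 at that minimum, none with only the groups compared in limma (11 with an unadjusted p under 0.05), and 0 to 2 without 1 library (none without siCTRL replicate 2 or 3). In siVPS37ABC against siCTRL 27 passed, and 16 at that minimum. Of the 36 single steps 1 passed, 12 with the replicate block, 6 with the library number, 2 with a pseudocount of 8, 3 with only the groups compared, and 1 to 2 without 1 library. The alternatives for single steps were added after seeing the data. No tested result reversed under any alternative run. Depth is unknown, so limits set by depth cannot be stated.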
